A study of Mus musculus with 2 samples.

Results

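The widest sites of c-Fos chromatin immunoprecipitation followed by sequencing (ChIP-seq) were described here, that is, every peak of about 1.31 kb or more on any sequence. There were 544 of them among 10870 peaks (5.0%). Width alone chose them, and the score did not enter the choice. They came from mouse bone marrow-derived mesenchymal stem cells, which are stromal precursors of bone, cartilage and fat cells. The genotype of both libraries was p53KO expressing cFos, where p53 is a tumour suppressor, at fewer than 20 passages. The ChIP used 50000000 fixed cells and 10 ug of an antibody to c-Fos. Besides the 1 ChIP library the series has 1 input library, DNA of the same cells without immunoprecipitation, and the file used here is the ChIP peak list. How c-Fos was introduced, whether the cells are 1 clone and how many animals they came from were not given in the sources used here. A peak list holds no marker of cell type, so the labelled cell type was not checked.

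c-Fos is a basic leucine zipper protein that binds DNA as a dimer with a Jun protein, and the dimer is called AP-1. AP-1 sites are known at promoters and, more often, at distant enhancers, and AP-1 is known to act in bone-forming and cartilage-forming cells. A sequence-specific factor occupies a short stretch of DNA, and the width of a ChIP peak comes mostly from the length of the sheared fragments. A much wider peak can therefore span several sites, or a region in which reads are raised over a long stretch. No mm9 sequence or annotation was used here, so no peak sequence is printed and no peak was joined to a gene by its coordinates.

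A single ChIP library gives no replicate error, and no test between conditions exists. The sequencing depth is unknown, so no peak height can be given. The score is the authors' own value for each peak on a scale that the file does not state, and it is used here only to describe and rank peaks within the list. Score and width come from the same peak call, and neighbouring peaks are not independent. Intervals below are therefore descriptions of counting error, and no test was made on them. The lowest score in the list was 50.01, and sites below it are not listed.

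The 544 wide peaks were a thin tail of the width distribution. Their median width was 1524 bp, with quartiles of 1407 and 1719 bp, against a median of 942 bp in the 10326 narrower peaks. Together they covered 898.7 kb, which was 8.48% of all bases under peaks. Most lay close to the threshold: 247 (45.4%) were under 1500 bp wide, 145 (26.7%) were from 1500 to under 1700 bp and 109 (20.0%) were from 1700 to under 2000 bp. Only 43 reached 2000 bp, and of these 26 were under 2500 bp, 7 were from 2500 to 3000 bp and 10 were wider than 3000 bp.

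**Figure D1:**
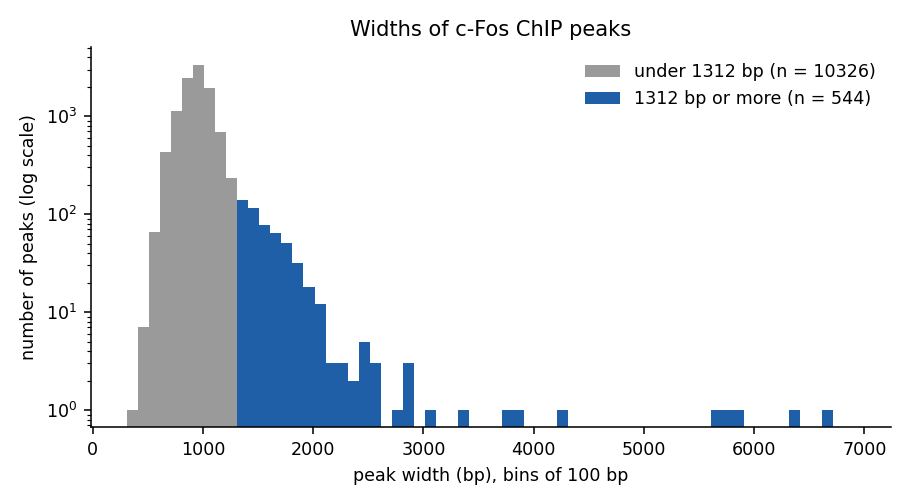
Number of c-Fos peaks (log scale) against peak width in bp, in bins of 100 bp, with the 544 wide peaks in blue and the 10326 narrower peaks in grey. The counts fall without a break through the threshold, and isolated single peaks appear above 3000 bp.

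No gap in width separated the wide peaks from the rest. The 5 just inside the threshold were at most 1314 bp wide. Their scores were 125.56, 278.85, 328.29, 379.80 and 453.57. The 5 just outside it were at least 1307 bp wide and scored from 185.60 to 302.11, which is within the range of those inside.

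Most wide peaks had high scores. Their median score was 257 (95% interval from order statistics 241 to 276), with quartiles of 155 and 428 and a range from 50.03 to 1339.87. The narrower peaks had a median of 97.6 and quartiles of 67.5 and 158. A score of at least 200 was reached by 333 wide peaks (61.2%), against 18.6% of the whole list, and a score of at least 500 by 95 (17.5%), against 2.10% of the list. Wide peaks thus made up 95 of the 228 peaks scoring at least 500. They were 48 of the 100 highest scores and 4 of the 10 highest. Since width and score come from the same call, these values describe the wide peaks and do not support anything about them.

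Score followed width closely among narrower peaks and loosely among wide ones. Spearman's rho between score and width was 0.68 across the 10326 narrower peaks and 0.16 across the 544 wide ones. The points share 1 library and 1 peak call, and the ranges of width differ, so the values of rho are descriptions. The median score rose from 58.1 in peaks under 700 bp to 285 in those from 1200 bp up to the threshold. It was 233 from the threshold to under 1500 bp, 263 from 1500 to under 1700 bp, 281 from 1700 to under 2000 bp, 407 from 2000 to under 2500 bp and 563 in the 7 peaks from 2500 to 3000 bp. In the 10 peaks wider than 3000 bp it was 130. The order of medians therefore broke at 2 places, just above the threshold and above 3000 bp. At the first of these the intervals of the medians overlapped (252 to 310 below the threshold and 199 to 257 above it). At the second the interval for the 10 widest ran from 61.3 to 931 and so held nearly the whole range.

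**Figure D2:**
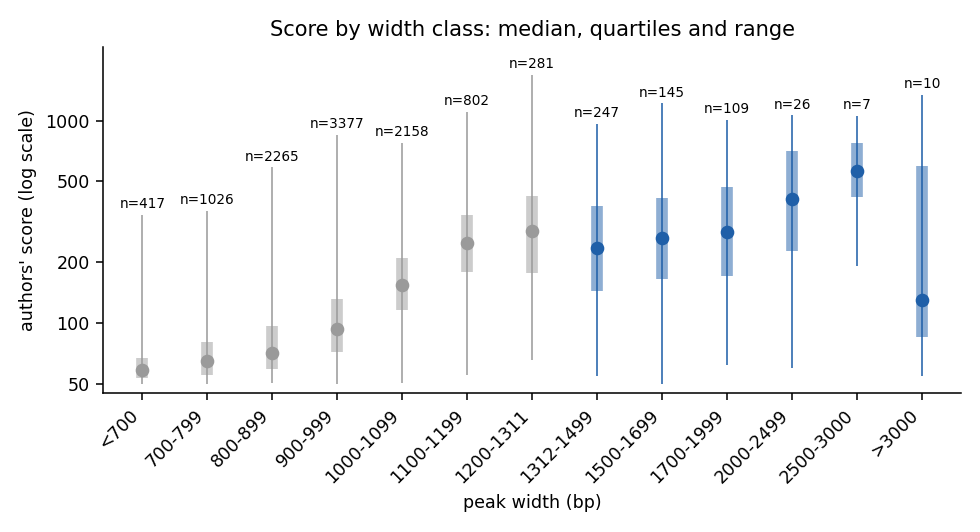
Authors' score (log scale) by class of peak width in bp, with the median as a point, the quartiles as a thick bar and the range as a thin line. Classes of wide peaks are in blue, and the number of peaks is printed above each. Medians rise from 233 to 563 over the blue classes up to 3000 bp and the class above 3000 bp has a median of 130.

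Read the other way, the share of wide peaks grew with the score up to 1000. Among peaks scoring under 60, 7 of 1700 (0.412%) were wide, and among those from 60 to under 100, 31 of 3663 (0.846%). The share was 4.97% from 100 to under 200, 10.1% from 200 to under 300, 18.6% from 300 to under 500 and 38.7% from 500 to under 750. It was 57.1% (20 of 35, Wilson 95% interval 40.9 to 72.0) from 750 to under 1000 and 41.7% (5 of 12, 19.3 to 68.0) at 1000 or more, and these last intervals overlap widely. A high score did not need a wide peak. The highest score in the list, 1685.19, belonged to a peak of 1257 bp, just under the threshold, and the narrowest peak scoring at least 500 was 850 bp wide.

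**Figure D3:**
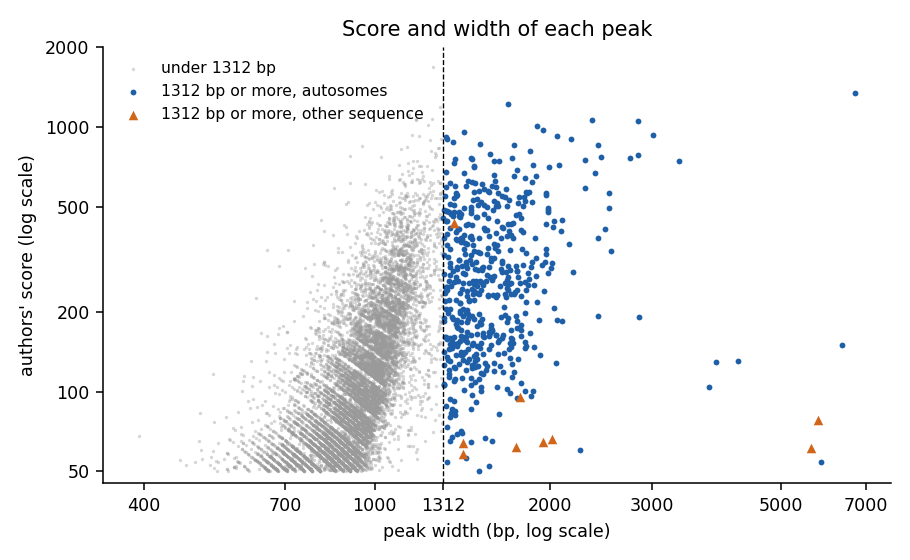
Authors' score against width in bp for each peak (both axes log scale), with narrower peaks in grey, wide peaks on autosomes in blue and wide peaks on chromosome Y or on sequence without a fixed place as orange triangles. The dashed line marks the width threshold. Beyond 3000 bp the points split into 3 above 700 and 7 at or below 150.

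The 10 peaks wider than 3000 bp fell into a high-scoring and a low-scoring set, with no score between 150.00 and 745.52. The widest peak, 6705 bp on chromosome 17 from 39979582 to 39986286, scored 1339.87, the second-highest value in the list. This part of mm9 is known to hold the assembly's copy of Rn45s, the gene of the precursor from which the large ribosomal RNAs are cut. In the mouse genome that gene is present in long tandem arrays that assemblies largely leave out. The RefSeq gene table at hand, on GRCm38.p6, names an rRNA-derived pseudogene, Rn18s-rs5, between Esp15 and the long noncoding RNA AY036118 on chromosome 17. Its coordinates belong to another build and were not compared with the peak. The peak stood alone: the nearest peaks lay 2592 kb to the left and 953 kb to the right. How reads from repeated copies were placed was not given in the sources used here, and their part in this peak was not tested.

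The other two high-scoring peaks of this class were far narrower. One, 3012 bp on chromosome 2 from 28379039 to 28382050, scored 930.74 and had its nearest neighbour 64.5 kb away. The other, 3336 bp on chromosome 13 from 23608698 to 23612033, scored 745.52. It lay in the region known for the large cluster of replication-dependent histone genes, with another peak 1.46 kb away and 15 other peaks within 100 kb. No wide peak had more peaks around it, and 1 other on the same chromosome, from 23537521 to 23539085, also had 15.

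The remaining 7 scored from 54.29 to 150.00 despite their width. A pair on chromosome 6 lay 26.0 kb apart. Its first peak, 4220 bp from 47687055 to 47691274, scored 130.98, and its second, 6360 bp from 47717291 to 47723650, scored 150.00. A pair on chromosome 1 lay 11.4 kb apart. Its first peak, 3864 bp from 172993660 to 172997523, scored 129.09, and its second, 3763 bp from 173008950 to 173012712, scored 103.82. The third widest peak in the list, 5858 bp on chromosome 14 from 44056844 to 44062701, scored 54.29, which ranked 10082 of 10870. It had no other peak within 292 kb. The last 2 lay on sequence not assigned to a chromosome, one of 5795 bp with a score of 78.18 and one of 5618 bp with a score of 61.30.

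The 7 peaks from 2500 to 3000 bp had no score under 190.97. The highest was 1052.69, for a peak of 2838 bp on chromosome 14 from 51708164 to 51711001. Chromosome 6 held 2 of them, with scores of 784.99 (2832 bp, 118315514 to 118318345) and 190.97 (2848 bp, 90656952 to 90659799). The peak of 2749 bp on chromosome 3 from 96303089 to 96305837 scored 765.65 and had a neighbour 708 bp away. The peak of 2531 bp on chromosome 17 from 23811973 to 23814503 scored 563.29 and had none within 124 kb. The last 2 scored 493.96 (chromosome 1, 172966841 to 172969373) and 339.83 (chromosome 2, 156281122 to 156283671). Width in this class thus went with crowded and with solitary positions alike.

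The 10 wide peaks of highest score ranged in width from 1325 to 6705 bp. After the peak of 6705 bp came one on chromosome 6 from 91438074 to 91439770, 1697 bp wide, with a score of 1217.03. A peak of 2366 bp on chromosome 11 from 68853435 to 68855800 scored 1060.40, and the peak of 2838 bp on chromosome 14 named above came next. A peak of 1898 bp on chromosome 19 from 42091044 to 42092941 scored 1008.58, and one of 1945 bp on chromosome 6 from 108626673 to 108628617 scored 975.41. The remaining 4, of chromosomes 8, 2, 17 and 3, scored from 915.21 to 958.71. Of the 10, 4 had another peak within 10 kb, a share near that of all wide peaks (36.2%) and of the list (29.2%). The narrowest of them, 1325 bp on chromosome 3 from 50998820 to 51000144, ranked 522 by width among the 544 and scored 915.21.

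At the low end, 38 wide peaks scored under 100, where 93.0% of the wide peaks and 50.7% of the list scored at least 100. Of the 38, 30 lay on 14 autosomes and 8 on chromosome Y or unassigned sequence. Their median width was 1463 bp. The 30 on autosomes had a median distance of 38.2 kb to the nearest peak, against 18.8 kb for all wide peaks there. Another peak lay within 10 kb of 4 of the 30, against 36.6% of all wide peaks there and 29.2% of the list. The lowest score of a wide peak, 50.03, belonged to a peak of 1511 bp on chromosome 6 from 3150575 to 3152085, the first peak on that chromosome. The second lowest, 52.36, belonged to one of 1571 bp on chromosome 7 from 7251282 to 7252852, which had no other peak within 2326 kb and was the most isolated wide peak on the autosomes. A peak of 2253 bp on chromosome 4 from 146678797 to 146681049 scored 59.93, with its nearest neighbour 599 kb away.

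Nearly all wide peaks, 535 of 544 (98.3%), lay on autosomes. The share of a chromosome's peaks that were wide had a median of 4.86% over the 19 autosomes. It was highest on chromosome 6, with 61 of 817 (7.47%, Wilson 95% interval 5.86 to 9.47), chromosome 18, with 27 of 385 (7.01%, 4.86 to 10.0), and chromosome 17, with 37 of 535 (6.92%, 5.06 to 9.39). It was lowest on chromosome 7, with 12 of 438 (2.74%, 1.57 to 4.73). The intervals of most autosomes overlapped, and the extremes were picked by their values. Chromosome 6, with 7.52% of the list and 11.2% of the wide peaks, also held 10 of the 43 peaks of at least 2000 bp. Chromosome 14, with 4.67% of the list and 4.96% of the wide peaks, held 6. No other autosome held more than 4, and 12 of the 19 held at least 1.

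Chromosome X held no wide peak. With 65 peaks listed there, the Wilson 95% interval of a count of 0 reaches 5.58%, above the share of the whole list, 5.0%. A rougher upper limit for a count of 0, taken as 3 counts of 65, is 4.62%, below that share. At the share of the list, 3.25 wide peaks would have been listed on X. A lower share on X was therefore not detectable with this number of peaks, and X peaks were also lower in score (median 74.4). Within each of the 19 autosomes the median score of the wide peaks exceeded that of the narrower ones. It ran from 174 on chromosome 12 to 408 on chromosome 19.

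**Figure D4:**
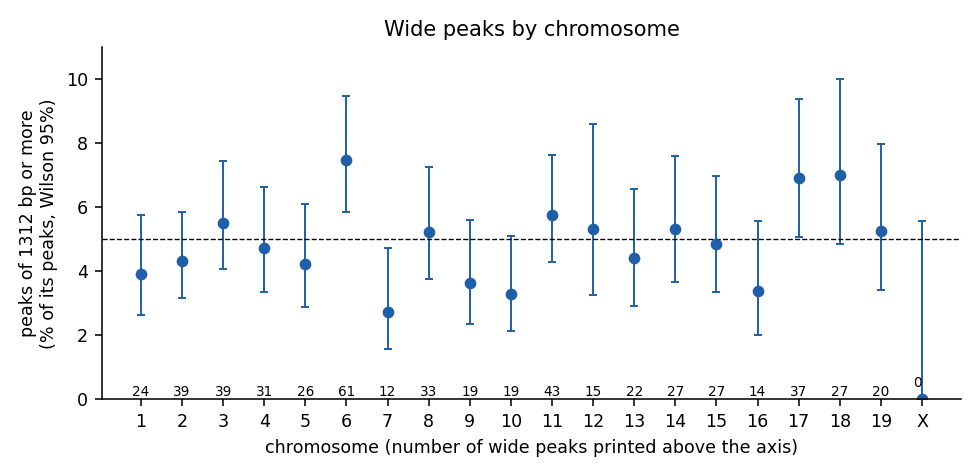
Share of each chromosome's peaks that are wide, in percent, with Wilson 95% intervals and the number of wide peaks printed above the axis. The dashed line is the share in the whole list, 5.0%. Chromosomes 6, 18 and 17 are highest, at 7.47, 7.01 and 6.92%, and X has 0.

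Sequence without a fixed place on a chromosome held 19 peaks, of which 8 were wide. The collected unplaced sequence of mm9 held 10 peaks, of which 7 (70.0%, Wilson 95% interval 39.7 to 89.2) were wide, from 1419 to 5795 bp. All 7 scored under 100, from 61.30 to 95.07. Chromosome Y held 1 peak, 1416 bp wide with a score of 58.03. Its unlocalised sequence held 5, of which 1 was wide (1369 bp) and scored 432.53, and the unlocalised sequences of chromosomes 1 and 9 held 2 peaks each, with 0 wide. The peak on the unlocalised sequence of Y was the only wide peak off the autosomes to score over 100. Unplaced sequence in mm9 is made of fragments joined end to end, so distances between peaks there are not genomic distances.

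Wide peaks had close neighbours somewhat more often than narrower ones. Another peak lay within 10 kb, edge to edge, of 197 of the 544 (36.2%, Wilson 95% interval 32.3 to 40.3), against 29.2% of the whole list and 28.8% (28.0 to 29.7) of the narrower peaks. The median distance to the nearest peak was 19.2 kb, against 26.9 kb for the narrower. Within 2 kb the share was 12.9% of the wide peaks, against 9.29% of the list, and within 50 kb it was 74.8%, against 66.0% of the list. At equal spacing of centres a wider peak has the smaller edge-to-edge distance, which weighs most at short distances. The part of width in these shares was not tested. The median number of other peaks within 100 kb was 2 for both, and the means were 2.98 and 2.32. At the other end, 70 wide peaks (12.9%) had none within 100 kb, against 19.2% of the narrower.

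The score moved with this difference, and its part was not tested. Among peaks scoring from 100 to under 200 the share with another peak within 10 kb was 34.7% of wide and 30.2% of narrower peaks. It was 35.1% and 30.9% from 200 to under 300, 41.1% and 32.0% from 300 to under 500, and 43.2% and 35.3% at 500 or more. In each of these 4 classes the wide peaks had the higher share and the Wilson intervals of the pair overlapped. Under 100 the order was the opposite, with 5 of 38 wide peaks (13.2%, 5.75 to 27.3) against 27.2% of narrower ones.

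**Figure D5:**
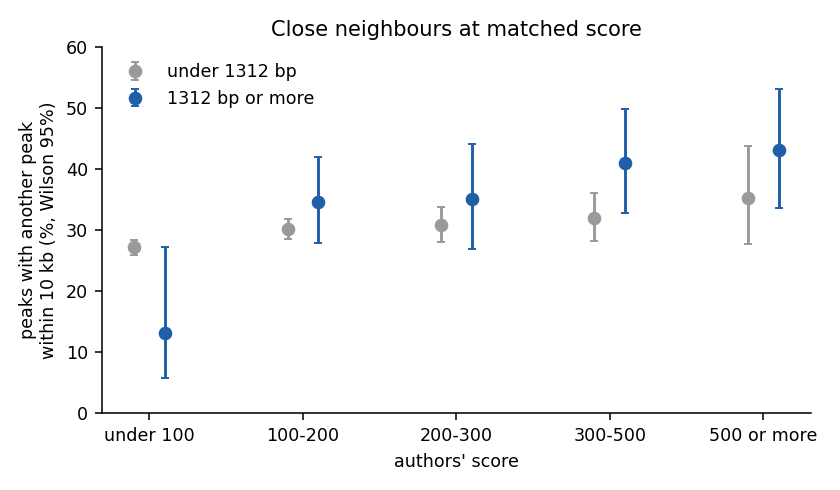
Share of peaks with another peak within 10 kb, in percent with Wilson 95% intervals, by class of the authors' score, for wide peaks (blue) and narrower peaks (grey). The blue points lie above the grey ones in the 4 classes from a score of 100 upward and below them under 100, where there are 38 wide peaks.

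Where a wide peak had a close neighbour, it was usually the higher-scoring of the pair. On chromosomes 1 to 19 and X, 196 wide peaks had another peak within 10 kb. For 27 the nearest was itself wide, and for 169 it was narrower. The wide peak had the higher score in 141 of those 169 pairs (83.4%), with a median of 282 against 115 for the neighbours, whose median width was 974 bp. Wide peaks also scored higher across the list, with a median of 257 against 97.6 for narrower ones. The same share for wide and narrower peaks that lie far apart was not computed, so it cannot be called a trait of close pairs. Wide peaks with a peak within 10 kb had a median score of 286, and those without had 241.

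Of the 535 wide peaks on chromosomes 1 to 19 and X, 444 had no other wide peak within 50 kb, edge to edge. The other 91 lay in 41 groups of at least 2, and 7 of these groups held 3 or 4. Wide peaks are only 5.0% of the list, and the number grouped in an equally sparse set of peaks was not computed. Among the 196 with any peak within 10 kb, the nearest was itself wide for 27. One group of 4 spanned 66.8 kb on chromosome 1 from 172966841 to 173033651 and contained both peaks of the low-scoring pair named above. The 2 outer peaks scored 493.96 and 418.79 at widths of 2533 and 2025 bp, and the 2 inner ones, the wider at 3864 and 3763 bp, scored 129.09 and 103.82. The wider pair of this group was thus the lower-scoring one.

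The other group of 4 lay on chromosome 6 from 128709686 to 128794312, and all but the last of its wide peaks began at nearly even distances. Wide peaks began at 128709686, 128748524 and 128788068, that is, 38.8 and 39.5 kb apart. Their widths were 1692, 1763 and 1686 bp, and their scores were 431.12, 269.89 and 388.60. Each was followed by a further peak that began 4.02, 4.07 and 4.67 kb after it. The first 2 of these followers were narrower (1143 bp with a score of 354.93, and 1161 bp with a score of 289.36), and the last was itself wide (1578 bp, score 787.35). The spacing was noticed after the values were seen, and whether the underlying sequence repeats was not tested.

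The 5 groups of 3 differed in level. On chromosome 11 from 68850321 to 68877257 the 3 wide peaks scored 616.27, 1060.40 and 808.30, with no narrower peak between them. On chromosome 6 from 31030441 to 31051341 the first 2 scored 379.33 and 441.76 at 2425 and 2035 bp, and the last scored 55.97 at 1437 bp. On chromosome 13 from 21252284 to 21265315 the 3 scored from 184.51 to 262.00 within 13.0 kb. In the other group on chromosome 11, from 48636091 to 48670829, scores ran from 152.18 to 659.12.

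The last group of 3, on chromosome 3 from 88268114 to 88308237, reached into a run of 8 close peaks in the region known for Lmna, the gene of the nuclear lamins A and C. Its wide peaks scored 190.34, 185.10 and 742.12, and the last of them, 1600 bp from 88306638 to 88308237, was the highest-scoring peak of the run. In a run of 6 peaks on chromosome 15, in the region known for Plec, the gene of the cytoskeletal linker plectin, 1 peak was wide. It was 1516 bp, from 76026267 to 76027782, and with 861.62 scored highest there too. In a run of 6 on chromosome 2, in the region known for Zeb2, a zinc finger repressor, the single wide peak of 1406 bp scored 170.24, below the run's highest score of 251.23. These gene names are background, since no mm9 annotation was used.

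Wide peaks were a slightly larger share of the peaks in close runs than of the list. The list held 241 runs of at least 3 peaks with neighbouring centres within 10 kb, and 196 of them contained no wide peak. How many runs would hold none at the share of the list was not computed. Of their 825 peaks, 55 (6.67%) were wide, against 5.0% of the list. In the 24 windows of 1 Mb with at least 20 peaks, 38 of 533 peaks (7.13%) were wide.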

How the data were processed

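The authors deposited 1 peak list for the c-Fos ChIP library, which gives positions and, per peak, a deposited score of unstated scale. CASAVA 1.8.2, MACS 1.4.1 and mm9 are named in the submitters' processing notes, with no roles, and the peaks bear MACS names. The aligner, read filters, threshold and use of the input as control were not given in the sources used here.

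Wide peaks are those of at least 1312 bp. Width is end minus start, and starts are printed 1-based. Distances run from edge to edge, and counts within 100 kb and runs of 10 kb use peak centres. Shares have Wilson 95% intervals and medians have intervals from order statistics. Named regions are all wide peaks over 3000 bp, the 10 of highest score, the 5 on each side of the threshold and the groups with most wide peaks. Those from 2500 to 3000 bp, of lowest score or near named genes were added after their values were seen. The members and lists were chosen with earlier results of these data known. Samples were grouped by antibody, and the input had no file used here. The planned start-site, motif and repeat results need mm9 sequence or annotation and were not run. The procedures were tested on simulated positions. Python 3.11.15, pandas 2.3.3, numpy 2.4.6, scipy 1.17.1 and matplotlib 3.10.9 were used.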

Additional observations from a re-analysis of the deposited data

How the results depend on the processing

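Of 17 recomputed values, 9 stayed within the main interval or, for counts, within 1.5 times, and 8 moved. A width of at least 1500 bp left 297 peaks with a median score of 281, and one of at least 2000 bp left 43 with a median score of 404, of which 44.2% had another peak within 10 kb. With peaks scoring under 100 left out of the list, neighbours included, that share was 26.1% of wide and 18.4% of narrower peaks. In the full list, 12.9% of wide peaks had another peak within 2 kb and 74.8% within 50 kb. The counts fall with a larger width minimum, and the shares move with the distance, by construction. For the median scores and the share at the larger minimum, the cause was not tested. Leaving out the peaks over 3000 bp, added after the data were seen, moved none of the 3 results. Alternatives for start sites, motifs and masked sequence were not run. The depth is unknown, so sites below the lowest score cannot be counted. No paired analysis was possible because there is a single ChIP library.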

Other observations

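Some wide peaks lay almost against their neighbour. A gap of at most 500 bp separated 31 wide peaks (5.70%) and 300 narrower peaks (2.91%) from the nearest other peak. Gaps run from edge to edge, so at equal spacing of centres a wider peak has the smaller gap. The part of width in this difference was not tested. The smallest gap of a wide peak was 18 bp, for the peak of 1314 bp on chromosome 4 from 32337433 to 32338746 (score 278.85). A peak on chromosome 17 from 71096938 to 71098293 (1356 bp, score 146.08) followed with 25 bp, and one on chromosome 6 from 125376343 to 125377735 (1393 bp, score 460.57) with 27 bp. Such pairs would be single, wider peaks if gaps of this size were bridged, so the widths given here depend on where the peak caller divided a region. No list with such gaps bridged was made, so any change in which peaks count as wide was not computed. How the list was divided was not given in the sources used here. They were picked out for their small gaps.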
